A study of Rattus norvegicus with 7 samples.

Results

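The prostacyclin and thromboxane pathway was followed through 10 genes in rat lung: the cyclooxygenases Ptgs1 and Ptgs2, the terminal synthases Ptgis, Tbxas1, Ptges and Ptgds, the receptors Ptgir, Tbxa2r and Ptger4, and the catabolic enzyme Hpgd. Every probe set whose only gene symbol in the platform annotation was one of these genes was taken, which gave 12 probe sets for 9 of the 10 genes, among 14217 genes on the array with a probe set of their own symbol. Ptgir, the prostacyclin receptor, had no such probe set and was not analysed here. Of the 12 probe sets, 6 passed a filter on mean expression (a 7-array mean over 3.64, the midpoint of the 31042 probe sets that are not controls) and were tested among 15521 probe sets. They belong to Ptgis, Ptgs1, Ptgs2, Tbxas1 and Hpgd, the last with a pair of probe sets.

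Total RNA of perfused right lungs from Dahl salt-sensitive rats, an inbred strain prone to hypertension on a high-salt diet, was hybridised to Affymetrix arrays. The HSU_Sor group (4 arrays) came from rats that breathed about 9.5% oxygen and received SU-5416, an inhibitor of VEGF receptors, together with sorafenib, which blocks RAF and several receptor tyrosine kinases. The HSU group (3 arrays) had the same hypoxia and SU-5416 without sorafenib, so both groups carried the model of pulmonary hypertension and differed, by their labels, in sorafenib. Lungs were taken at 3.5 weeks, and the rats weighed 250 to 350 g. Age, sex and doses are not given in the labels. Normoxic rats and rats in hypoxia alone, which the design text also describes, were not analysed here, so whether a level lies above or below that of a healthy lung was not measured.

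Both cyclooxygenases oxidise arachidonic acid, released from membranes by phospholipases, to the unstable intermediate prostaglandin H2, and terminal synthases compete for it. Prostacyclin synthase, made mainly by endothelial and smooth muscle cells, yields prostacyclin, which relaxes pulmonary arteries and inhibits platelets through a receptor that raises cyclic AMP. Thromboxane synthase, abundant in platelets and macrophages, yields thromboxane A2, which contracts vessels and activates platelets. Reduced prostacyclin relative to thromboxane is a known feature of pulmonary arterial hypertension, and prostacyclin analogues are used to treat it.

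Array medians lay between 3.59 and 3.68 on the log2 scale, and correlations between arrays over the tested probe sets lay between 0.9843 and 0.9916. The replicate labels of all HSU arrays carry a letter b and those of HSU_Sor arrays do not, so a batch that the letter might mark cannot be told apart from sorafenib. The arrays HSU 1b and 2b stood apart in cardiac muscle markers, with mean log2 deviations from the 7-array mean of 1.83 and 1.15 over the 6 markers tested, against -1.08 to -0.18 on the HSU_Sor arrays and -0.90 on HSU 3b. Among these markers, Mb passed the filter only through HSU 1b and 2b, at 6.88 and 5.59 there and 2.57 to 2.64 elsewhere. It adds to their deviations, and the means without Mb were not computed. HSU_Sor 3 and 4 stood apart in erythroid markers, at -3.22 and -3.47 over the 2 markers tested, against 0.66 to 2.44 on the other 5 arrays. For the tested members, values without these pairs are given where they differ from the full set by over 1.5 times, and for Ptgis in any case. Without HSU 1b and 2b together, HSU 3b alone stands for its group, so such values hold no spread within HSU.

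Prostacyclin synthase separated the groups. Ptgis (probe set 1370012_at) stood at 9.07, 9.38, 9.32 and 9.08 on the log2 scale in the HSU_Sor lungs, against 10.23, 10.14 and 10.35 in the HSU lungs. The highest HSU_Sor array lay below the lowest HSU array, and 46.8% of all probe sets tested had a smaller within-group SD than its 0.14. The means were 9.21 ± 0.16 (SD, n = 4) in HSU_Sor and 10.24 ± 0.10 (SD, n = 3) in HSU, a log2 difference of -1.03 ± 0.10 (SE) with a 95% confidence interval from -1.27 to -0.79, or a 2.04-fold lower level.

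The difference did not pass the adjusted threshold of 0.05 (limma, adjusted p = 0.15, unadjusted p = 3.17e-05), although only 2 of the 15521 probe sets had a smaller unadjusted p. As a single value it had a two-sided exact permutation p of 0.0571, the smallest that 4 against 3 arrays can give. With a stricter filter, at the 75th percentile of mean expression, it passed with an adjusted p of 0.0441, and its adjusted p ran up to 0.616 under the other alternatives. The log2 difference was -1.14 without HSU 1b and 2b together, which leaves HSU 3b alone in its group. It was -1.02 ± 0.12 (SE) without HSU_Sor 3 and 4 together.

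**Figure D1:**
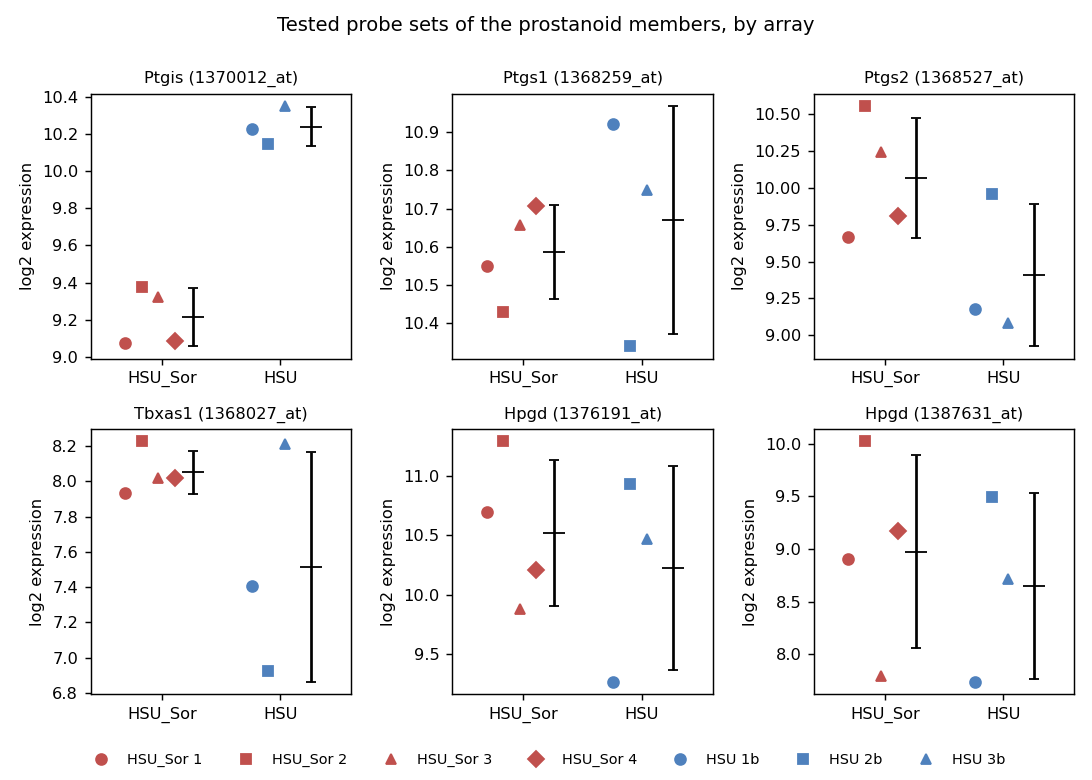
Log2 expression (vertical axes, a range of its own in each panel) of the 6 tested probe sets, with each array as a point and the group mean ± SD as a bar beside it, HSU_Sor (4 arrays, red) on the left and HSU (3 arrays, blue) on the right. Ptgis is the panel in which the groups do not overlap, with HSU_Sor between 9.07 and 9.38 and HSU between 10.14 and 10.35.

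Levels of smooth muscle and fibroblast markers lay lower on the HSU_Sor arrays as well, although 0 markers of any list passed the adjusted threshold (limma). At an unadjusted p below 0.05 (limma), 5 of 10 smooth muscle and 6 of 10 fibroblast markers were lower, where 3.67% of all probe sets tested were. All 10 smooth muscle markers were lower in HSU_Sor by some amount, where 54% of all probe sets tested were. Their summed level on the log2 scale spanned 15.00 to 15.50 in HSU_Sor lungs and 15.83 to 15.99 in HSU lungs. The largest log2 differences were those of desmin (Des), at -1.10 ± 0.12 (SE), and smooth muscle gamma-actin (Actg2), at -1.45 ± 0.16. The smallest was that of Acta2, at -0.04 ± 0.14. Of 10 fibroblast markers 9 were lower, and their summed level spanned 16.44 to 16.62 in HSU_Sor and 16.66 to 16.79 in HSU. Of the 9 endothelial markers measured 5 were lower and 4 higher, and their summed level spanned 15.84 to 16.20 in HSU_Sor, which takes in the HSU range of 16.02 to 16.11. Von Willebrand factor (Vwf), an endothelial product, was higher in HSU_Sor by 0.41 ± 0.08 on the log2 scale (SE; limma, adjusted p = 0.567), with no overlap. The endothelial markers Cldn5 and Egfl7 went the other way, at -0.14 ± 0.07 and -0.19 ± 0.13 (SE), with overlapping groups. The part of these cells in the Ptgis difference was not tested, and in whole lung fewer cells of a type and less RNA per cell cannot be told apart.

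Thromboxane synthase showed no such separation. Tbxas1 (1368027_at) was at 7.94, 8.23, 8.02 and 8.02 in HSU_Sor lungs, against 7.41, 6.92 and 8.21 in HSU lungs. The HSU_Sor values sat close together, while the HSU arrays spread widely and HSU 3b reached the top of the HSU_Sor range. The means were 8.05 ± 0.12 (SD, n = 4) in HSU_Sor and 7.51 ± 0.65 (SD, n = 3) in HSU, and the log2 difference of 0.54 ± 0.29 (SE, 95% confidence interval -0.15 to 1.23) did not pass (limma, adjusted p = 0.874). Leaving out HSU 2b gave 0.24 and leaving out HSU 3b gave 0.89. The difference turned to -0.16 without HSU 1b and 2b together, against HSU 3b alone.

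HSU 2b, the array with the lowest Tbxas1, was the lowest HSU array by mean log2 deviation in every pathway list reported here. The same held for macrophage, fibroblast and alveolar type II markers. It was the highest HSU array in smooth muscle, endothelial and mast cell markers. A low HSU 2b was thus not particular to the leukotriene and macrophage lists. Of the 7 tested leukotriene and lipoxygenase genes, 4 had their lowest value on HSU 2b, where 13.2% of all probe sets tested did, among them 5-lipoxygenase (Alox5), at 8.72 there against 9.04 to 9.30 on the other arrays, and leukotriene A4 hydrolase (Lta4h), at 12.69 against 12.96 to 13.45. The macrophage marker Cd68, picked after its values were seen, was at 8.31 on HSU 2b, against 9.79 to 10.44 in HSU_Sor lungs and 10.42 and 10.07 on HSU 1b and 3b. The macrophage list as a whole had a mean log2 deviation of -0.12 on HSU 2b, below the 0.71 and 0.80 of HSU 1b and 3b. It was not the lowest of all arrays there, since HSU_Sor lungs lay between -0.72 and 0.01. The 8 measured macrophage markers had a summed log2 level of 13.41 to 13.74 in HSU_Sor and 13.51 to 14.26 in HSU, with 4 of the 7 tested lower in HSU_Sor. Among them the complement genes C1qa, C1qb and C1qc were lower, at -1.70, -2.69 and -1.68 as log2 differences, the other direction from Tbxas1. The remaining tested macrophage markers differed less, with Cd68 at 0.39, Csf1r at 0.17, Mrc1 at 0.01 and Adgre1 at -0.20. Platelet markers gave little to set beside Tbxas1: 5 of the 7 measured, the integrin Itga2b and the chemokine Ppbp included, lay below the filter, and the summed log2 level of the list spanned 8.98 to 11.21 in HSU_Sor and 9.81 to 10.08 in HSU. The part of myeloid cells or platelets in the Tbxas1 values was not tested.

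Since both synthases draw on the same intermediate, the log2 value of Ptgis less that of Tbxas1 was followed within each array. The probe sets differ in brightness, so only its change between arrays can be read. It was 1.14, 1.15, 1.30 and 1.06 in HSU_Sor lungs, against 2.82, 3.22 and 2.14 in HSU lungs. No HSU_Sor array reached the lowest HSU array, and the HSU_Sor arrays were much closer to one another than the HSU arrays were, with SDs of 0.10 (n = 4) and 0.55 (n = 3). The mean was 1.56 lower in HSU_Sor (a log2 difference of -1.56, or -0.98 against HSU 3b alone, without HSU 1b and 2b together). It is given as a description with no test, because Ptgis was known to differ when the pair was chosen.

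**Figure D2:**
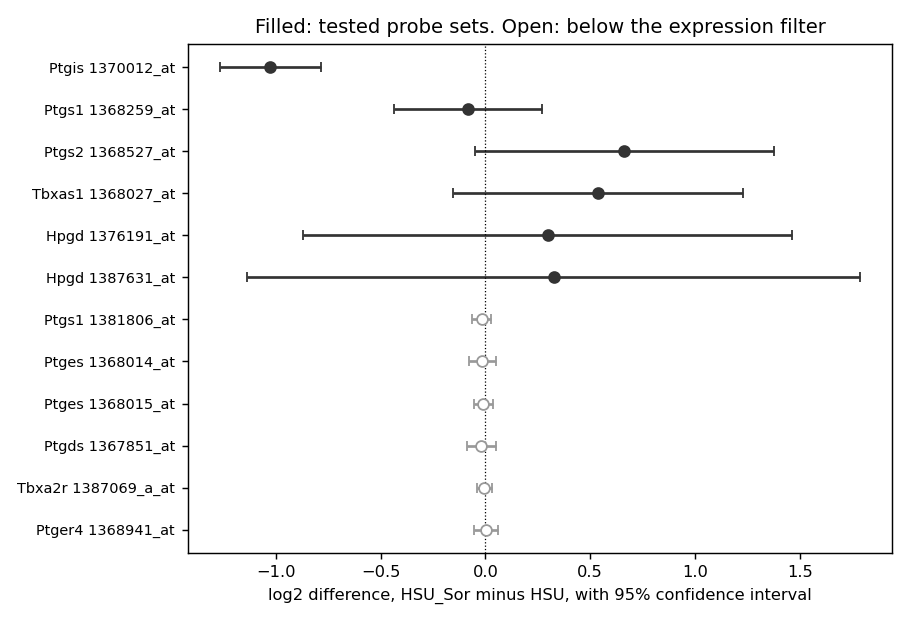
Log2 difference, HSU_Sor minus HSU, of all 12 probe sets (horizontal axis, 0 dotted) with its 95% confidence interval, filled for the 6 tested probe sets and open for the 6 below the filter, whose intervals come from the fit with no filter. The Ptgis interval lies below 0, from -1.27 to -0.79, and the intervals of the other 11 probe sets take in 0.

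Upstream of the synthases, the constitutive cyclooxygenase Ptgs1 was nearly level. Its brighter probe set (1368259_at) was at 10.55, 10.43, 10.66 and 10.71 in HSU_Sor lungs, against 10.92, 10.34 and 10.75 in HSU lungs, with overlapping groups and with both the highest and the lowest value among the HSU arrays. The log2 difference was -0.08 ± 0.15 (SE, 95% confidence interval -0.44 to 0.27; limma, adjusted p = 0.925), and without HSU replicate 1b it turned to 0.042. It was -0.16 without HSU 1b and 2b together and -0.18 without HSU_Sor 3 and 4 together. The second Ptgs1 probe set (1381806_at) lay below the filter, between 3.03 and 3.09 on all 7 arrays.

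The inducible cyclooxygenase Ptgs2 (1368527_at) was at 9.67, 10.56, 10.24 and 9.81 in HSU_Sor lungs, against 9.18, 9.96 and 9.08 in HSU lungs. HSU 2b lay within the HSU_Sor range, and the other HSU arrays lay below it. Means were 10.07 ± 0.41 (SD, n = 4) in HSU_Sor and 9.41 ± 0.48 (SD, n = 3) in HSU, a log2 difference of 0.66 ± 0.30 (SE, 95% confidence interval -0.05 to 1.38) that did not pass (limma, adjusted p = 0.861, unadjusted p = 0.0639). The difference stayed positive in all 17 alternatives run, between 0.50 and 0.99. The array with the lowest Tbxas1 and the lowest Ptgs1, HSU 2b, thus had the highest Ptgs2 of its group.

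Hpgd, the dehydrogenase that inactivates prostaglandins after uptake into cells, varied most among the members. One probe set (1376191_at) was at 10.70, 11.29, 9.88 and 10.21 in HSU_Sor lungs, against 9.27, 10.93 and 10.47 in HSU lungs. The other (1387631_at) was at 8.91, 10.02, 7.79 and 9.17 in HSU_Sor lungs, against 7.74, 9.49 and 8.71 in HSU lungs. Both were highest on HSU_Sor 2 and lowest on HSU 1b, and in both the next lowest array was HSU_Sor 3. The within-group SDs of 0.72 and 0.90 were larger than those of 97.5% and 98.6% of the probe sets tested. The log2 differences of 0.30 ± 0.49 and 0.33 ± 0.61 (SE) did not pass (limma, adjusted p = 0.92 and adjusted p = 0.93), and their 95% confidence intervals, from -0.87 to 1.46 and from -1.14 to 1.79, are wide on both sides of 0. Without HSU replicate 1b both differences turned negative, to -0.18 and -0.13. Without HSU_Sor 3 and 4 together they were 0.77 and 0.82, and without HSU 1b and 2b together 0.048 and 0.26.

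The other synthases and the receptors lay below the filter. Ptges, the inducible prostaglandin E synthase, spanned 2.88 to 2.97 on one probe set (1368014_at) and 2.18 to 2.24 on the other (1368015_at). Ptgds, a prostaglandin D synthase, spanned 2.51 to 2.61. Mast cells are a known source of prostaglandin D2, and the summed log2 level of 9 mast cell markers spanned 7.09 to 7.69 in HSU_Sor and 7.96 to 9.27 in HSU, with 5 of the 9 below the filter. HSU 2b had the highest of these levels. A summed level follows its brightest markers. Of the 4 tested, Mcpt10 (-2.42), Mcpt1 (-1.16) and Cpa3 (-0.74) were lower in HSU_Sor without overlap. Kit differed by -0.16 ± 0.34 (SE), with overlapping groups. Which prostaglandin D synthase mast cells used here, Ptgds or another, was not tested. The thromboxane receptor Tbxa2r spanned 1.76 to 1.79, and Ptger4, a prostaglandin E receptor that raises cyclic AMP, 2.97 to 3.05. The 6 probe sets below the filter, the dim one of Ptgs1 included, had ranges of 0.03 to 0.11 over all 7 arrays, and the median within-group SD was 0.02 for all probe sets below the filter and 0.15 for those tested. Such values sit at the floor of the deposited scale, so a difference there cannot be read and was not tested. A probe set at the floor does not show that its transcript was missing.

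Of the 6 tested probe sets 0 passed the adjusted threshold (limma), as did 0 of all 15521 (0%). At an unadjusted p below 0.05 there was 1 of the 6, Ptgis, where 6% of all probe sets tested reached this level, 3.67% with a lower and 2.33% with a higher value in HSU_Sor. Ptgis also met a fold of at least 1.4, the minimum named in the design text, with an unadjusted p below 0.01, as did 0.844% of all. Groups did not overlap for 1 of the 6, Ptgis again, against 5.26% of all (3.25% lower and 2.01% higher in HSU_Sor). The median log2 difference of the 6 was 0.31, beside -0.01 over all probe sets tested. It is the midpoint of the pair of Hpgd probe sets, neither of which passed and both of which turned negative without HSU replicate 1b. Ptgis had the largest difference of the 6 and the smallest pooled within-group SD, at 0.14, where the other 5 lay between 0.21 and 0.90.

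The neighbouring prostanoid enzymes and transporters held almost level. Of 14 genes tested, 7 were lower and 7 higher in HSU_Sor with a median log2 difference of 0.01, where 54% of all probe sets tested were lower. Of the 14, 0 passed over all probe sets (limma), and 1 gene had an unadjusted p below 0.05, as did 6% of all. That gene was the cytosolic prostaglandin E synthase and HSP90 co-chaperone Ptges3, at 13.12, 13.18, 13.17 and 13.16 in HSU_Sor lungs, against 13.37, 13.20 and 13.46 in HSU lungs, with groups that did not overlap and a log2 difference of -0.19 ± 0.07 (SE). Slco2a1, which carries prostaglandins into cells for degradation, differed by 0.03 ± 0.06 and the exporter Abcc4 by 0.22 ± 0.18, or 0.082 without HSU replicate 1b. Ptgr1, a reductase of prostaglandin breakdown products, differed by 0.26 ± 0.12 and the carbonyl reductase Cbr1 by 0.04. The remaining tested genes were Ptges3l1 (-0.07), Cbr3 (-0.09), Akr1b1 (-0.03), Akr1b8 (-0.11, and -0.66 to 0.28 without 1 array), Prxl2b (0.10), Slco3a1 (0.09) and Ptgr2 (0.08), with Ptges2 and Ptgr3 at -0.01 each. Ptges2 passed the filter with a mean of 8.53 but spanned only 0.01 over all 7 arrays, less than any member at the floor, and Ptgr3 spanned 0.03, so their differences carry no more than those of the floor probe sets. Hpgds, the hematopoietic prostaglandin D synthase, and Akr1b10 lay below the filter.

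Among the other prostanoid receptors, Ptger1, Ptger2, Ptger3, Ptgfr and Ptgdr2 all lay below the filter, and 0 of the 3 genes tested passed. Ptgfrn, a membrane protein that regulates the prostaglandin F receptor negatively, was at 11.34, 11.29, 11.52 and 11.34 in HSU_Sor lungs, against 11.65, 11.64 and 11.66 in HSU lungs. Its groups did not overlap and the log2 difference was -0.28 ± 0.06 (SE; limma, adjusted p = 0.597, unadjusted p = 0.0041). The nuclear receptors Ppard, which prostacyclin can activate, and Pparg differed by -0.04 ± 0.06 and 0.01 ± 0.39.

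Phospholipases and other genes of arachidonate release were similar, with 5 of 12 tested genes lower, 7 higher and a median of 0.02. Over all probe sets tested, 54% were lower. The cytosolic phospholipase Pla2g4a, which supplies both cyclooxygenases, was at 9.27, 9.67, 9.27 and 9.26 in HSU_Sor lungs, against 9.19, 9.02 and 9.25 in HSU lungs. HSU_Sor 4 lay just above HSU 3b, so the groups did not overlap, while the log2 difference was 0.21 ± 0.12 (SE) and did not pass (limma, adjusted p = 0.874). Without HSU_Sor replicate 2 it was 0.11. The secreted phospholipase Pla2g1b differed by 0.22 ± 0.12 (0.095 without HSU replicate 3b) and Plaat3 by -0.13 ± 0.08 (-0.068 without HSU replicate 1b). In the leukotriene branch all 7 tested genes were higher in HSU_Sor by some amount, where 46% of all probe sets tested were, with a median of 0.26 and 0 past either threshold of p. Without HSU replicate 2b this was 5 of 7, and Alox5 was at -0.0042 and Lta4h at 0.15. The membrane dipeptidases Dpep1 and Dpep2, which trim leukotrienes, differed by 0.16 ± 0.08 and 0.27 ± 0.14, Lta4h by 0.26 ± 0.14 and Alox5 by 0.15 ± 0.13. Most cytochrome P450 genes of this pathway lay below the filter. Of the 4 tested genes of this list, the epoxide gene Ephx1 included, 1 was lower and 3 were higher with a median of 0.06. The epoxygenase Cyp2c23 was at 6.75, 7.27, 6.63 and 7.19 in HSU_Sor lungs, against 6.45, 6.04 and 6.51 in HSU lungs, with no overlap and a log2 difference of 0.63 ± 0.20 (SE; limma, adjusted p = 0.772). Cyp2j4 went the other way, at -0.10 ± 0.05 (SE), with overlapping groups.

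**Figure D3:**
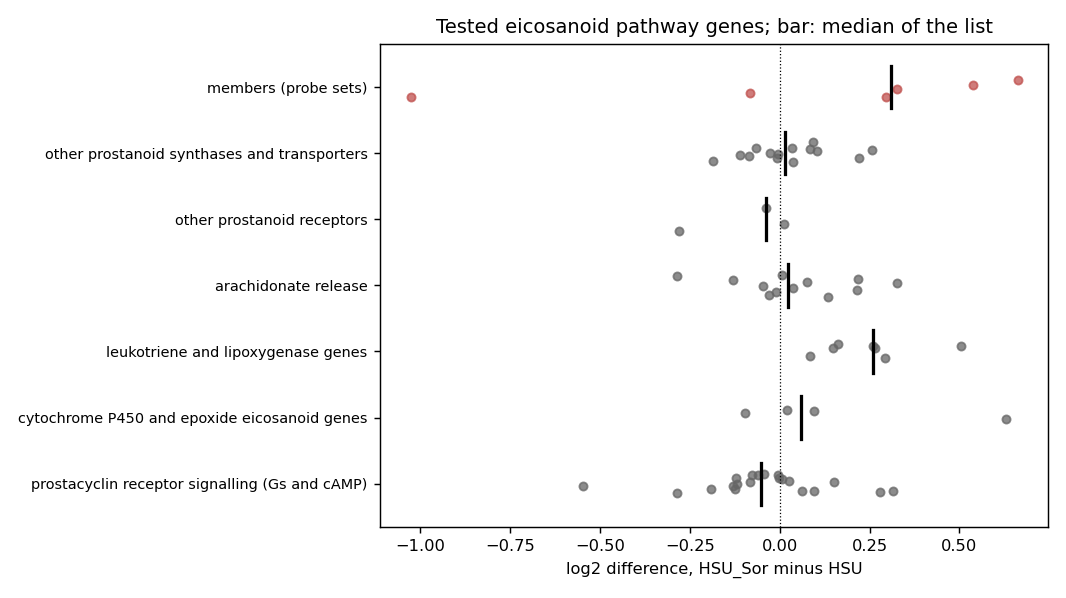
Log2 difference, HSU_Sor minus HSU (horizontal axis, 0 dotted), of the 6 tested member probe sets (red) and of the tested genes of 6 related lists (grey, 1 probe set per gene), with a bar at each list's median and vertical scatter for legibility only. Ptgis, at -1.03, is the lowest point plotted. The medians of the 6 related lists lie between -0.05 and 0.26, and that of the member probe sets is 0.31.

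Downstream, the prostacyclin receptor signals through cyclic AMP. Of 20 tested genes of that route, 13 were lower and 7 higher with a median of -0.05, where 54% of all probe sets tested were lower. Without HSU replicate 3b, 10 were lower and 10 higher, with a median of -0.0012. In the main fit 0 passed (limma). At an unadjusted p below 0.05 there were 1 lower and 2 higher, where 3.67% and 2.33% of all probe sets tested were. Prkaca, a catalytic subunit of protein kinase A, was at 9.61, 9.47, 9.71 and 9.38 in HSU_Sor lungs, against 9.26, 9.31 and 9.21 in HSU lungs, with no overlap and a log2 difference of 0.28 ± 0.09 (SE). The regulatory subunits Prkar2b and Prkar1a differed by -0.19 ± 0.07 and -0.12 ± 0.06, and the phosphodiesterase Pde7a, which breaks down cyclic AMP, by 0.32 ± 0.12. The adenylyl cyclase Adcy4 was named after its values were seen, as the other gene of this list without overlap. Its difference was the largest of the 20, at -0.55 ± 0.27 (SE). Adcy4 was at 6.75, 5.79, 6.72 and 6.75 in HSU_Sor lungs, against 6.87, 6.92 and 7.36 in HSU lungs. HSU_Sor 2 lay far below the other HSU_Sor arrays. The Adcy4 difference without that array was not computed, and Adcy4 was not among the results searched for a far array.

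The genes whose pattern was most like that of Ptgis were sought among 9298 other genes, as those with the smallest root mean square difference of log2 values centred on the 7-array mean. They were Gjc1 (0.11), Lypd2 (0.19), Scarb1 (0.20), Fblim1 (0.20) and Smoc2 (0.21). Gjc1, a connexin of vascular smooth muscle, was at 8.84, 9.14, 9.09 and 8.76 in HSU_Sor lungs, against 9.74, 9.85 and 9.85 in HSU lungs. The log2 differences of the 5 genes, between -0.93 and -0.73, and their course over the arrays follow from the way they were chosen and were given no test.

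**Figure D4:**
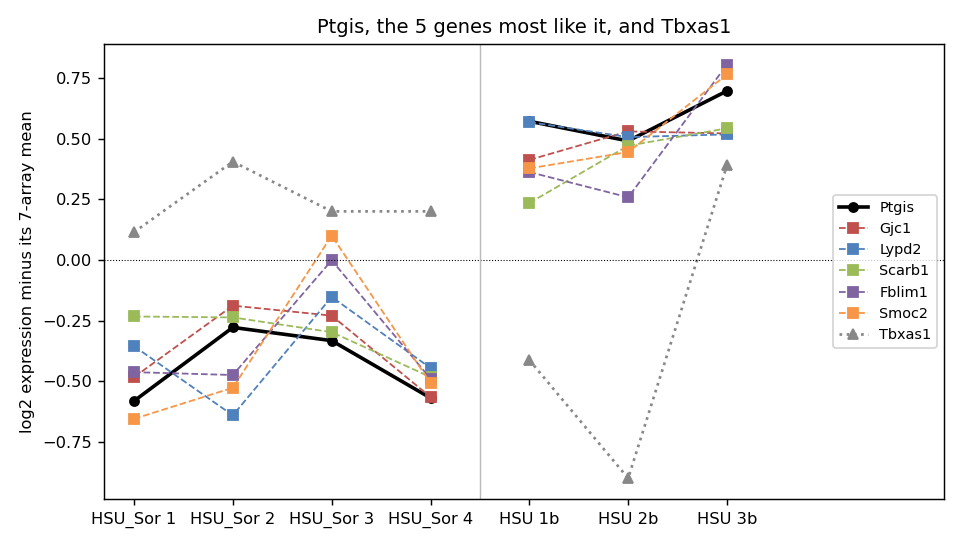
Log2 expression less its 7-array mean (vertical axis) on each array (HSU_Sor on the left, HSU on the right; lines join the points of 1 gene within a group and carry no order) for Ptgis (black), the 5 genes most like it and Tbxas1 (grey triangles). Ptgis and Gjc1 run close together, with a root mean square difference of 0.11, while Tbxas1 is lowest on HSU 2b.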

How the data were processed

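The authors deposited normalized log2 values, 1 for each probe set and array. RMA and GCRMA are named, per the submitters' processing notes, without saying which gave the values used here. Control probe sets (57) were left out. Of the 31042 others, 20826 had 1 gene symbol in the platform annotation, 436 several and 9780 none, and 20758 matched the RefSeq gene table of GRCr8. No other normalization was applied.

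HSU_Sor minus HSU was fitted by lmFit and eBayes of limma 3.58.1 in R 4.3.3, two-sided, with no covariate, on the 15521 probe sets whose mean was above the median, with Benjamini-Hochberg adjustment over all of them and a threshold of 0.05. Arrays were treated as separate rats. The labels do not say so outright, and p-values measure only the spread between these samples. No arrays held identical values. SAM, named in the design text, was not run. With 7 arrays, precision is limited by their number.

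The members, the pathway lists, the marker lists and the tests were chosen with earlier results of these data known. One pathway list is not reported here. List genes stand for their brightest probe set. All prostanoid genes were named, up to 4 genes with the smallest unadjusted p (no filter) from each other list, up to 3 per marker list, and the 5 genes most like Ptgis. A summed level is the log2 of the sum of linear values. The fit was tested on simulated data.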

Additional observations from a re-analysis of the deposited data

Results flagged for a closer look

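In the HSU_Sor group 61 results were searched for 1 array far from the other 3, by the ratio of its gap to the group's range, against Dixon's 95% critical value. Chance passes about 1 in 20 groups, and 4 results passed. Ppard had a ratio of 1, with HSU_Sor 4 at 6.07 and the other HSU_Sor arrays all at 6.2284. With such a tie, any distance of the remaining array gives a ratio of 1, so this ratio does not measure how far it lies. Pla2g4a had a ratio of 0.963, with HSU_Sor 2 at 9.67 and the others between 9.26 and 9.27, of which HSU_Sor 1 and 3 were both at 9.2739. Dpep2 had a ratio of 0.99, with HSU_Sor 4 at 7.21 and the others at 7.63. Fblim1, one of the genes most like Ptgis, had a ratio of 0.945, with HSU_Sor 3 at 7.91 and the others between 7.42 and 7.45. No member probe set was among them. HSU, with 3 arrays, was not searched.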

How the results depend on the processing

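The Ptgis difference stayed negative in all 17 alternatives, between -1.14 and -0.97, and between -1.08 and -0.97 without 1 array. It passed the adjusted threshold only with the filter at the 75th percentile (log2 difference -1.03, adjusted p = 0.0441), which tests 7761 probe sets and left 1 of the 4 member probe sets tested past the threshold (6 of all 7761), against 0 members in each other alternative. Tbxas1 and 1 Hpgd probe set do not reach that filter. With the replicate block, Ptgis differed by -0.98 with an adjusted p of 0.616. Numbers were shared by 3 pairs, whose deviations correlated at -0.06, 0.18 and 0.14. Deviations of samples with unlike numbers correlated between -0.17 and 0.24. So few values cannot decide whether the numbers pair the samples, and the main fit left them unpaired. With the replicate block, HSU_Sor 4 adds nothing to the difference. The count of members at an unadjusted p below 0.05 was 2 with the 75th percentile filter, quantile normalization, array weights and the replicate block, and 1 to 2 without 1 array, where the second was Ptgs2, or Tbxas1 without HSU replicate 3b. The count of members whose groups did not overlap was 1 to 3 without 1 array and 3 without HSU 1b and 2b together, where fewer arrays make a separation easier. The group difference in the Ptgis value less that of Tbxas1 was -0.98 without those 2 arrays, against HSU 3b alone. Among the tested members, signs turned for Tbxas1 at -0.16 without HSU 1b and 2b together, Ptgs1 at 0.042 without HSU replicate 1b (from -0.25 to 0.042 without 1 array), and Hpgd at -0.18 (1376191_at, from -0.18 to 0.65) and -0.13 (1387631_at, from -0.13 to 0.75) without HSU replicate 1b, the second also at -0.02 without HSU_Sor replicate 2. The cause was not tested. Of the 30 tested pathway genes named that are no members, 11 turned sign in at least 1 alternative (Slco3a1, Ptgr2, Cbr1, Prxl2b, Slco2a1, Ptgr3, Ptges2, Akr1b1, Akr1b8, Pparg and Alox5), and 23 moved by over 1.5 times without 1 array. None of the 6 pathway lists reported gained a gene past the adjusted threshold in any alternative. Applying the alternatives to the pathway lists, the named genes and the Ptgis value less Tbxas1 was decided after the data were seen.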

Other observations

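Of the 15521 probe sets tested, 5582 (36%) had the same value on 2 or more arrays to the last deposited digit. Tbxas1 was one of them, at 8.02 on HSU_Sor 3 and 4, and the other 5 tested member probe sets had no such ties.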
